A study of Mus musculus with 9 samples.

Results

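The MHC class II presentation genes considered here are 7 mouse genes, namely H2-Ab1, H2-Aa, H2-Eb1, H2-DMa, H2-DMb1, Cd74 and Ciita. They were taken as every probe set of the array whose annotation names 1 of these genes and no other. Of the 7 genes, 6 had such probe sets, 14 probe sets in all, out of 18193 genes and 34945 probe sets tested. H2-DMb1 had none, and both of its probe sets also name H2-DMb2, so their values are given as those of the pair.

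The RNA came from lung endothelial cells (ECs) of NSG mice, purified by flow cytometry and hybridized to Affymetrix arrays of the mouse genome, 9 arrays in 3 groups of 3. Mice of the first group carried lung metastases of MDA231-LM2 human breast cancer cells, injected into the tail vein of mice 6 to 8 weeks old, and received B20, an antibody that neutralizes VEGF, at 10 mg/kg, 2 times a week, until the lungs were taken on day 21. The second group carried the same metastases and received control IgG, and the third were age-matched healthy NSG mice that received control IgG. Whole lungs were used rather than nodules, CD31-positive cells were kept, and cells with CD45, CD11b, EpCAM, CD140a/b or the GFP of the cancer cells were discarded, and the metastatic mice were selected for comparable tumor load. All 3 groups therefore share the NSG background, which lacks T, B and NK cells, and the metastasis groups share a single human cell line as the tumor.

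MHC class II molecules are pairs of an alpha and a beta chain that display peptides to CD4+ T cells. Cd74, the invariant chain, escorts the new pair to the endosome, where the H2-DM pair exchanges the remnant of Cd74 for a peptide. CIITA, the product of Ciita, is the coactivator on which transcription of these genes depends. It binds no DNA itself and is recruited by the RFX, CREB and NF-Y proteins that sit on the X and Y boxes of class II promoters. Dendritic cells, macrophages and B cells carry class II constitutively, and endothelial cells of mouse lung can carry it as well.

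Because this module is a shared feature of class II promoters, the windows that hold it are shown for the classical genes H2-Eb1 and H2-Aa, for the H2-DMb pair, and for H2-Oa and H2-Eb2, which hold the same letters and were not called on the arrays. The sequences are RefSeq's, build GRCm38.p6, 65 bases upstream of the annotated start in the direction of transcription. Capitals mark the X box letters GNAAC and the Y box letters TGATTGG.
H2-Eb1: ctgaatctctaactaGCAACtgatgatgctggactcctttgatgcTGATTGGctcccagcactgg
H2-Aa: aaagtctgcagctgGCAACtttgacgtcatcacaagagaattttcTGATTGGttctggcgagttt
H2-DMb1: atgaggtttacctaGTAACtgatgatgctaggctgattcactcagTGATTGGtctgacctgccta
H2-DMb2: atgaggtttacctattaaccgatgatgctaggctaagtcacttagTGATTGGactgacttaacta
H2-Oa: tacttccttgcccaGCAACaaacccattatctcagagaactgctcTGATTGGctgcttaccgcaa
H2-Eb2: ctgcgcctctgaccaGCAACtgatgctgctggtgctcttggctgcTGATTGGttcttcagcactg

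These windows lie at chr17:34305761-34305825 on the plus strand for H2-Eb1, chr17:34287854-34287918 on the minus strand for H2-Aa, chr17:34153083-34153147 on the plus strand for H2-DMb1, chr17:34145112-34145176 on the plus strand for H2-DMb2, chr17:34092289-34092353 on the plus strand for H2-Oa and chr17:34325528-34325592 on the plus strand for H2-Eb2. The letters were searched on both strands of promoters of 300 bases, 250 before and 50 after the start, and the pair was counted where the starts of the boxes lay 20 to 40 bases apart. The Y box letters are the reverse complement of a CCAAT box. Of 8 class II genes with a promoter in the table, 7 held the Y box letters and 6 the ordered pair, with the starts 28 to 31 bases apart, and H2-DMb2 held the Y box letters without a pair. In all 32851 promoters of the table, the Y box letters were found in 7.82% and the pair in 0.569%. The letters were settled after these promoters had been read, so the counts are a description. Of the measured genes, H2-Aa, H2-Eb1, H2-Oa, H2-Ob and H2-Eb2 all hold the pair, and neither promoter listed for H2-DMa holds it.

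The classical class II chains averaged higher in ECs of metastatic lungs, with or without anti-VEGF, than in healthy ECs, and the calls of H2-Ab1 and H2-DMa held when any 1 array was left out. H2-Ab1 encodes the beta chain of the A molecule. Its log2 intensity was 10.44, 10.64 and 10.58 in anti-VEGF metastatic lungs, 10.89, 10.54 and 10.34 in IgG metastatic lungs, and 9.58, 9.50 and 9.82 in healthy lungs. All 6 metastatic arrays lay above all 3 healthy ones, while the arrays of the metastatic groups overlapped. On the log2 scale, where 1 unit is a 2-fold difference, H2-Ab1 rose by 0.96 ± 0.15 (SE, n = 3 per group) in IgG metastatic over healthy ECs (limma, adjusted p = 0.00632) and by 0.92 ± 0.10 in anti-VEGF metastatic over healthy ECs (adjusted p = 0.002).

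H2-Aa, the alpha chain that pairs with H2-Ab1, had 9.84, 10.23 and 9.98 in anti-VEGF metastatic lungs, 10.16, 9.60 and 9.82 in IgG metastatic lungs, and 9.27, 9.24 and 9.62 in healthy lungs. The second IgG metastatic array lay just under the third healthy array, so these groups overlapped, whereas the anti-VEGF arrays were all above the healthy ones. The difference of IgG metastatic from healthy ECs was 0.49 ± 0.16 and did not pass the test (adjusted p = 0.106), and that of anti-VEGF metastatic from healthy ECs did, at 0.64 ± 0.14 (adjusted p = 0.0312). That call was lost without healthy array 1 or 2 or anti-VEGF array 2 or 3 (adjusted p = 0.0813 to 0.111).

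H2-Eb1, the beta chain of the E molecule, had 9.74, 9.94 and 10.01 in anti-VEGF metastatic lungs, 9.91, 10.03 and 9.66 in IgG metastatic lungs, and 9.22, 9.35 and 9.51 in healthy lungs. No metastatic array overlapped a healthy one. The gene rose by 0.50 ± 0.12 in IgG metastatic ECs (adjusted p = 0.0363) and by 0.54 ± 0.11 in anti-VEGF metastatic ECs (adjusted p = 0.0222), each over the same healthy arrays. The first call was lost without healthy array 1 or 2 or IgG metastatic array 1 or 2 (adjusted p = 0.1 to 0.111), and the other without healthy array 1 or 2 or anti-VEGF array 2 or 3 (adjusted p = 0.0702 to 0.0804). As background, the NOD strain from which NSG mice derive carries an H2-Ea allele that is not expressed, so H2-Eb1 has no alpha chain of its own there.

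H2-DMa, the alpha chain of the peptide editor, had 9.28, 8.98 and 9.13 in anti-VEGF metastatic lungs, 9.15, 9.09 and 9.23 in IgG metastatic lungs, and 8.45, 8.47 and 8.58 in healthy lungs. The healthy arrays were close together and all below the metastatic ones. H2-DMa rose by 0.66 ± 0.08 in IgG metastatic ECs (adjusted p = 0.00213) and by 0.63 ± 0.10 in anti-VEGF metastatic ECs (adjusted p = 0.0074).

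For its partner H2-DMb1 only the pair of H2-DMb1 and H2-DMb2 was measured. Probe set 1449580_s_at had 9.13, 9.46 and 9.22 in anti-VEGF metastatic lungs, 9.35, 9.03 and 9.14 in IgG metastatic lungs, and 8.39, 8.73 and 8.69 in healthy lungs, again without overlap against healthy arrays. In a fit that added probe sets naming several genes, the pair was higher by 0.57 ± 0.12 in IgG metastatic ECs (adjusted p = 0.0297) and by 0.67 ± 0.12 in anti-VEGF metastatic ECs (adjusted p = 0.0193). Its other probe set, 1418638_at, gave 0.58 ± 0.15 in the IgG (adjusted p = 0.059) and 0.50 ± 0.15 in the anti-VEGF comparison (adjusted p = 0.107). Of the 3 probe sets that name H2-DMb2 alone, the one of highest mean differed by -0.02 ± 0.14 in the IgG and 0.05 ± 0.09 in the anti-VEGF comparison. The others differed by -0.25 ± 0.11 and -0.01 ± 0.10 in the IgG comparison, and none of the 3 passed the test in either.

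Cd74 had 9.55, 9.83 and 9.88 in anti-VEGF metastatic lungs, 9.61, 9.61 and 9.65 in IgG metastatic lungs, and 8.69, 8.78 and 9.27 in healthy lungs. The third healthy array was nearer to the metastatic arrays than to the other healthy ones, although the groups did not overlap. Cd74 rose by 0.71 ± 0.14 in IgG metastatic ECs (adjusted p = 0.0205) and by 0.84 ± 0.16 in anti-VEGF metastatic ECs (adjusted p = 0.0191). The first call was lost when any 1 of the 3 IgG metastatic arrays or of healthy arrays 1 and 2 was left out, with adjusted p up to 0.0788. The call in anti-VEGF metastatic ECs was lost without healthy array 1 or 2 or anti-VEGF array 2 or 3 (adjusted p = 0.0566 to 0.0771).

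Ciita did not pass the test in any comparison. Its values were 8.30, 8.70 and 7.96 in anti-VEGF metastatic lungs, 8.56, 7.91 and 8.29 in IgG metastatic lungs, and 7.86, 7.82 and 7.99 in healthy lungs. In each metastatic group, 2 arrays lay above all the healthy ones and 1 lay within their range. The differences from healthy ECs were 0.36 ± 0.15 for IgG metastatic (adjusted p = 0.196) and 0.43 ± 0.17 for anti-VEGF metastatic ECs (adjusted p = 0.192), with 95% intervals of 0.01 to 0.72 and 0.04 to 0.82. Without IgG metastatic array 2 the difference of that group was 0.54 (adjusted p = 0.039). The healthy mean of Ciita, 7.89, lay within the range of the dimmer class II chains below, 7.46 to 8.37. Ciita also dropped out where dim genes were removed. Whether it was expressed cannot be told from intensities, so the failed test does not show how an expressed Ciita behaved.

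**Figure D1:**
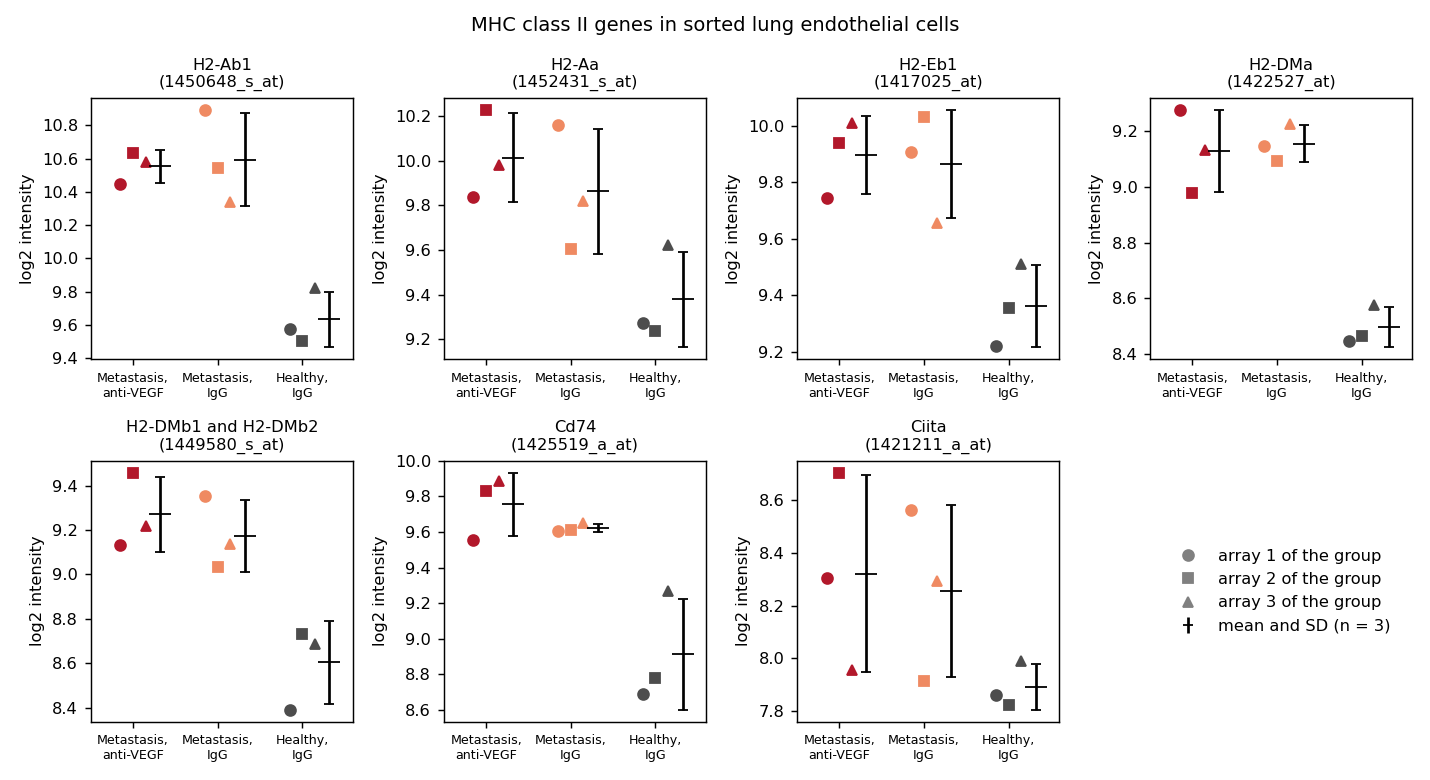
Log2 intensity (vertical axis, own range in each panel) of each class II gene on each array, 3 arrays per group, with bars for mean and SD beside the points; the groups run anti-VEGF metastatic, IgG metastatic and healthy. For H2-Ab1, H2-Eb1, H2-DMa, the H2-DMb pair and Cd74 every metastatic array lies above every healthy array, while for Ciita the groups overlap.

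Of the 6 measured genes, 4 were called higher and 0 lower in IgG metastatic over healthy ECs (median difference 0.58), where 5.55% of all 18193 genes were called higher and 3.46% lower. In anti-VEGF metastatic over healthy ECs 5 of 6 were called higher and 0 lower (median 0.64), against 4.15% higher and 2.29% lower of all genes. The median difference over all genes was -0.001 in the IgG comparison and -0.01 in the anti-VEGF comparison. The arrays did not overlap, and were higher in metastatic lungs, for 4 of 6 class II genes in the IgG comparison and 5 of 6 in the anti-VEGF comparison, where 15.4% and 13.8% of all genes did so. Both comparisons use the same healthy arrays, so they are not independent. The count of genes called fell to 2 in the IgG comparison without healthy array 1, healthy array 2 or IgG metastatic array 1, and to 2 in the anti-VEGF comparison without healthy array 1 or 2 or anti-VEGF array 2 or 3.

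Of the 14 probe sets, 7 were called higher and 0 lower in the IgG comparison, against 4.43% higher and 2.98% lower of all probe sets, and 7 higher and 0 lower in the anti-VEGF comparison, against 3.32% and 2.09%. All 3 probe sets of H2-Ab1 were called in both comparisons, with 1425477_x_at at 0.86 ± 0.14 and 1451721_a_at at 0.64 ± 0.15 in IgG metastatic over healthy ECs. For H2-Aa the picture was mixed. Probe set 1435290_x_at was called in the IgG comparison (0.77 ± 0.16, adjusted p = 0.0257) and not in the anti-VEGF comparison (0.56 ± 0.16, adjusted p = 0.09), the reverse of probe set 1452431_s_at, whose values are given above. Probe sets 1438858_x_at and 1443783_x_at of H2-Aa were called in neither comparison, at 0.42 ± 0.15 and 0.07 ± 0.10 in the IgG comparison. The other Ciita probe sets, 1421210_at and 1447075_at, differed by 0.21 ± 0.12 and -0.13 ± 0.15, and the other H2-DMa probe set, 1459872_x_at, by 0.22 ± 0.10, none of them called. Probe sets whose names end in _x_at or _s_at can bind transcripts of related genes, which matters in a family of close copies such as this one.

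Blocking VEGF was not accompanied by a detectable difference in class II RNA. Of the 6 genes 0 were called in anti-VEGF over IgG metastatic ECs, 4 differences being above and 2 below 0, with a median of 0.05. No other gene of the array was called in this comparison either, so the background was 0% in each direction, although 1462 genes had an unadjusted limma p under 0.05. The difference was -0.04 ± 0.14 for H2-Ab1, with a 95% interval of -0.36 to 0.28, and -0.03 ± 0.10 for H2-DMa, with an interval of -0.25 to 0.20. These intervals do not reach the size of the rise of either gene over healthy ECs.

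Cd74 differed by 0.13 ± 0.10 between the metastatic groups (interval -0.10 to 0.37), H2-Eb1 by 0.03 ± 0.12 (-0.24 to 0.31) and H2-Aa by 0.15 ± 0.16 (-0.20 to 0.51). For Ciita the interval was widest, at 0.06 ± 0.21 and -0.41 to 0.54. By these bounds, differences in either direction could have been missed for each measured gene. The lower bounds were furthest from 0 for Ciita, at -0.41, and H2-Ab1, at -0.36. The upper bounds were furthest from 0 for Ciita, at 0.54, and H2-Aa, at 0.51. Of the 14 probe sets, 0 were called, and 1 did not overlap between the groups and was lower, as were 6.58% of all probe sets. This was 1435290_x_at of H2-Aa, with 9.39, 9.54 and 9.51 in anti-VEGF against 9.70, 9.77 and 9.61 in IgG metastatic lungs, a difference of -0.21 ± 0.09 (adjusted p = 0.653).

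**Figure D2:**
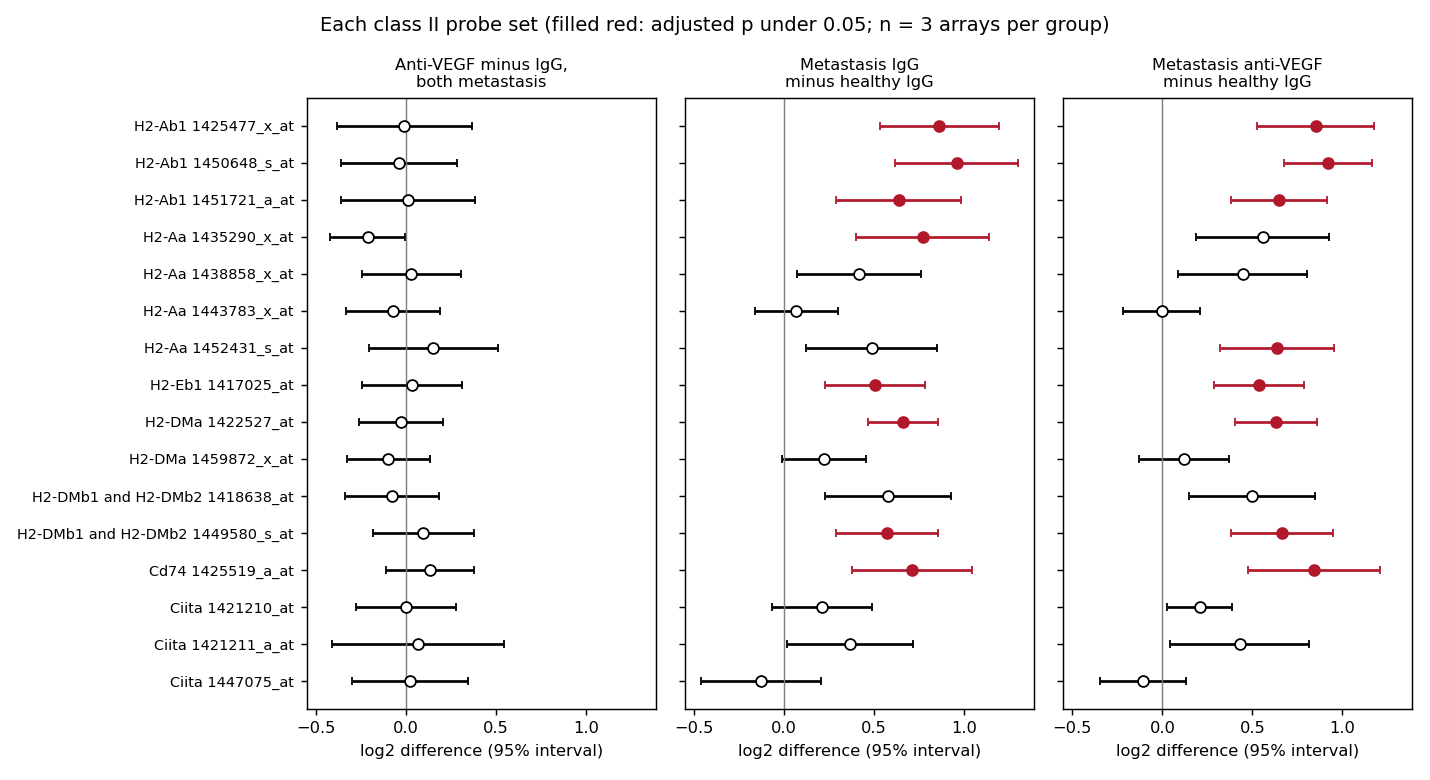
Log2 difference with 95% interval (horizontal axis) for each of the 14 class II probe sets and the 2 of the H2-DMb pair, 3 arrays per group; the panels show anti-VEGF minus IgG in metastatic lungs, IgG metastatic minus healthy and anti-VEGF metastatic minus healthy. No point is filled in the first panel, and all 3 H2-Ab1 probe sets are filled (adjusted p under 0.05) in the other panels.

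No further class II chain was called. Of 5 measured, 0 passed the test in either comparison with healthy ECs, and all 5 differences were below 0 in the IgG comparison (median -0.11). H2-Oa, the alpha chain of H2-DO, which restrains H2-DM, had 7.55, 7.85 and 7.70 in anti-VEGF metastatic lungs, 7.63, 7.13 and 7.83 in IgG metastatic lungs, and 8.18, 8.40 and 8.00 in healthy lungs. Its arrays lay below the healthy ones in both metastatic groups without passing the test, at -0.66 ± 0.18 in IgG metastatic (adjusted p = 0.0594) and -0.49 ± 0.12 in anti-VEGF metastatic ECs (adjusted p = 0.0537). H2-Ea differed by -0.21 ± 0.12, H2-Ob, the partner of H2-Oa, by -0.11 ± 0.15 and H2-Eb2 by -0.07 ± 0.11 in the IgG comparison. These 5 chains were dimmer, with healthy means from 7.46 for H2-Ea to 8.37 for H2-Ob. The healthy means of H2-Eb1, H2-Aa and H2-Ab1 were 9.36, 9.38 and 9.63. Whether the dimmer chains were expressed at all cannot be told from intensities, so their differences do not show how expressed chains behaved.

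On the chromosome these genes stand in 1 stretch with the class I processing genes. RefSeq orders it as H2-Oa, Brd2, H2-DMa, H2-DMb2, H2-DMb1, Psmb9, Tap1, Psmb8, Tap2, H2-Ob, H2-Ab1, H2-Aa, H2-Eb1, H2-Eb2 and H2-Ea, 15 genes of which 14 were measured. In IgG metastatic over healthy ECs 6 were called higher and 0 lower, where 5.55% of all genes were called higher. In anti-VEGF metastatic over healthy ECs 8 were called higher and 0 lower, where 4.15% of all genes were called higher. These counts include H2-DMa, H2-Ab1 and H2-Eb1, and H2-Aa in the anti-VEGF comparison, which were already counted above. The same shares of all genes apply to the gene lists below. Tap1, a chain of the peptide pump that feeds class I, rose by 0.53 ± 0.08 in IgG metastatic and 0.65 ± 0.08 in anti-VEGF metastatic ECs. Psmb8, a subunit of the immunoproteasome, rose by 0.47 ± 0.08 in IgG metastatic and 0.51 ± 0.08 in anti-VEGF metastatic ECs. Between them and the classical class II genes stands H2-Ob, at -0.11 ± 0.15 in the IgG and 0.02 ± 0.17 in the anti-VEGF comparison, and beyond H2-Eb1 stand H2-Eb2 and H2-Ea, neither called.

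**Figure D3:**
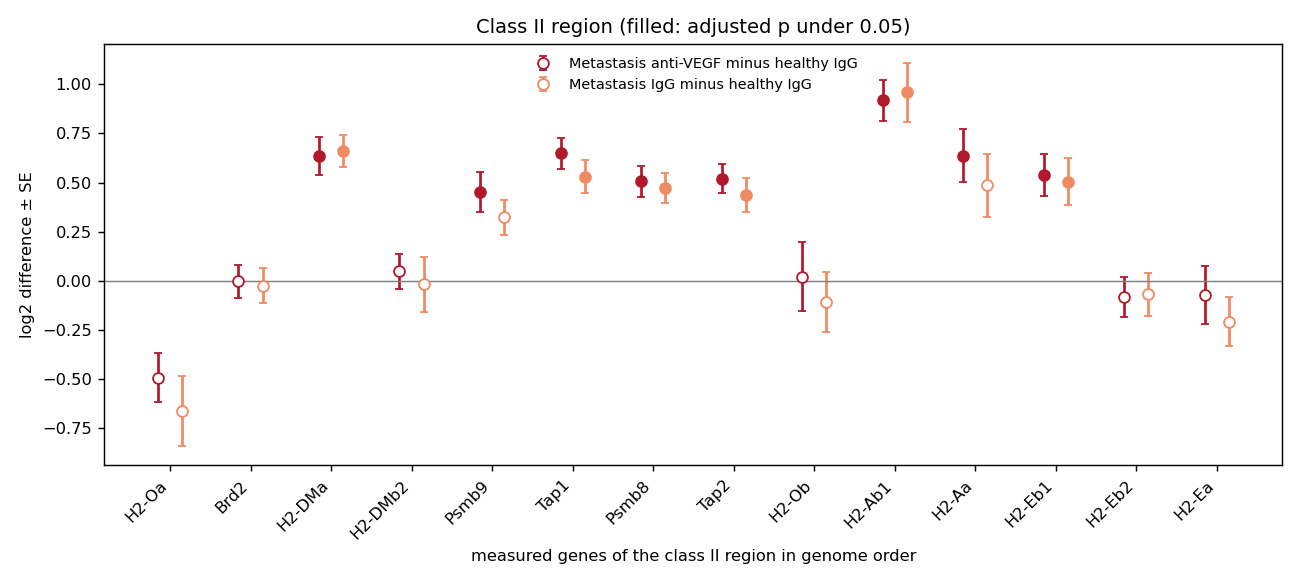
Log2 difference from healthy ECs with SE (vertical axis) of the 14 measured genes of the class II region in genome order, anti-VEGF metastatic left of IgG metastatic for each gene, 3 arrays per group. Filled points (adjusted p under 0.05) fall on H2-DMa, on the stretch of Psmb9, Tap1, Psmb8 and Tap2, and on H2-Ab1, H2-Aa and H2-Eb1, with H2-Aa and Psmb9 filled in the anti-VEGF comparison only.

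Among the proteins that act on class II promoters, calls depended on the probe set read. Of the 7 genes of RFX, NF-Y and CREB measured (Rfx5, Rfxap, Rfxank, Nfya, Nfyb, Nfyc and Creb1), each read from its probe set of highest mean, 0 were called in either direction in any comparison, with a median of -0.09 in IgG metastatic over healthy ECs. The smallest p-values among these were those of Creb1, which binds the X2 part of the X box, at -0.21 ± 0.09 (adjusted p = 0.199), and Nfya, a Y box subunit, at -0.11 ± 0.07 (adjusted p = 0.418). Over all 18 probe sets of the 7 genes, however, 2 were called lower in the IgG comparison and 1 in the anti-VEGF comparison. These were a second probe set of Rfxap, an RFX subunit, at -0.63 ± 0.09 in the IgG (adjusted p = 0.00431) and -0.70 ± 0.10 in the anti-VEGF comparison (adjusted p = 0.00576), and another of Nfya at -0.51 ± 0.11 in the IgG comparison only (adjusted p = 0.0273). Interferon-gamma is the classical inducer of Ciita. Of 7 listed genes of its signaling 6 were measured (Ifngr1, Ifngr2, Jak1, Jak2, Irf1 and Socs1), and 0 were called in any comparison. In the IgG comparison Ifngr1, the ligand-binding chain of the interferon-gamma receptor, differed by 0.27 ± 0.08 (adjusted p = 0.0822). Irf1, a transcription factor on the inducible Ciita promoter, differed there by -0.20 ± 0.08 (adjusted p = 0.158). The activity of this signaling was not tested.

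Among 8 genes of endosomal processing and class II turnover, 1 was called higher and 0 lower in each comparison with healthy ECs (median 0.11 in the IgG comparison). This was Ctss, the protease cathepsin S, which trims Cd74. It had 12.27, 12.40 and 11.88 in anti-VEGF metastatic lungs, 12.16, 11.96 and 12.08 in IgG metastatic lungs, and 9.82, 10.60 and 11.03 in healthy lungs, a rise of 1.58 ± 0.26 in IgG metastatic ECs (adjusted p = 0.0084) and 1.70 ± 0.28 in anti-VEGF metastatic ECs (adjusted p = 0.0103). Of 6 costimulatory and checkpoint ligands, 1 was called higher and 0 lower in each. This was Cd274, which encodes PD-L1, at 1.19 ± 0.10 in the IgG and 1.04 ± 0.09 in the anti-VEGF comparison, while Cd86, Cd80 and Cd40, costimulatory molecules that accompany class II on professional presenting cells, were not called.

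The class I pathway, which displays peptides to CD8+ T cells, had 4 of 16 measured genes called higher and 0 lower in the IgG comparison (median 0.15) and 5 higher and 0 lower in the anti-VEGF comparison (median 0.15). Nlrc5, the coactivator that does for class I what CIITA does for class II, rose by 1.37 ± 0.15 in IgG metastatic ECs (adjusted p = 0.00125) and by 1.46 ± 0.16 in anti-VEGF metastatic ECs (adjusted p = 0.00173). Tap1 and Psmb8 are given above, and Tap2 rose by 0.44 ± 0.09 in IgG metastatic and 0.52 ± 0.07 in anti-VEGF metastatic ECs. Over all 40 probe sets of the list, 5 were called higher in the IgG and 6 in the anti-VEGF comparison, and 0 lower. They included 1 of the class I chain H2-K1 in the IgG comparison only (0.36 ± 0.08, adjusted p = 0.0325). Another was 1 of the class I chain H2-D1 in the anti-VEGF comparison only (0.56 ± 0.08, adjusted p = 0.00739). Other probe sets of these chains were not called. The differences of Ciita and Nlrc5 were not tested against each other.

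Many macrophage and monocyte markers were also higher in ECs of metastatic lungs. Of 19 macrophage and monocyte markers, 10 were called higher and 0 lower in each comparison with healthy ECs, with medians of 0.54 in the IgG and 0.67 in the anti-VEGF comparison. Of all genes, 5.55% and 4.15% were called higher in these comparisons. C1qa, a complement subunit made by macrophages, had 9.79, 10.49 and 9.56 in anti-VEGF metastatic lungs, 10.21, 9.83 and 9.85 in IgG metastatic lungs, and 7.07, 7.48 and 7.41 in healthy lungs. It rose by 2.64 ± 0.14 in IgG metastatic ECs (adjusted p = 5.05e-05), with Ms4a7 at 2.0 ± 0.10, C1qb at 1.74 ± 0.19 and Lyz2 at 1.14 ± 0.17. These are the 4 called genes of largest difference in the list, which did not move as one. In the IgG comparison 16 of the 19 differences were above 0, while Mertk was at -0.23, Ccr2 at -0.16 and Fcgr1 at -0.05. None of these lower genes was called, nor was Adgre1, at 0.74. The mean log2 level of the 19 markers ran over 9.06 to 9.34 in anti-VEGF metastatic, 9.01 to 9.17 in IgG metastatic and 8.24 to 8.51 in healthy lungs, so these ranges, like those of the class II genes, did not overlap with healthy arrays. Ptprc, which encodes the CD45 that the sort selected against, had 9.51, 9.35 and 9.35 in anti-VEGF metastatic, 9.25, 9.33 and 9.29 in IgG metastatic and 8.24, 8.82 and 9.24 in healthy lungs and was not called. Macrophages express class II genes themselves, and their part in the class II values was not tested. In sorted cells measured in bulk, more cells of a type and more RNA per cell cannot be told apart.

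Markers of dendritic cells and lymphocytes gave no call. Of 7 dendritic cell markers 0 were called, with Itgax at 0.39 ± 0.20 (adjusted p = 0.284) and Zbtb46 at -0.16 ± 0.09 (adjusted p = 0.359) in IgG metastatic over healthy ECs. The same held for B cells, with 0 of 6 called, Cd79a at -0.29 ± 0.11 and Cr2 at -0.31 ± 0.16, and for T and NK cells, with 0 of 5 called, Cd8a at -0.18 ± 0.12 and Cd3e at -0.18 ± 0.16. Mean levels of the dendritic cell list spanned 7.96 to 8.25 in anti-VEGF metastatic, 8.05 to 8.24 in IgG metastatic and 7.99 to 8.13 in healthy lungs. In this list Zbtb46 stood apart, with a healthy mean of 11.05. The other measured genes of the list had healthy means from 7.13 to 8.22. Which cells gave the Zbtb46 signal was not tested. Alveolar type 2 cells also carry class II in the mouse lung, and of 8 of their markers 3 were called higher in the IgG comparison and 0 in the anti-VEGF comparison, with medians of 0.85 and 0.79. Slc34a2, a phosphate carrier of these cells, rose by 1.31 ± 0.30 and the surfactant genes Sftpd and Sftpb by 1.18 ± 0.27 and 0.92 ± 0.20 in IgG metastatic ECs. Epcam, which encodes the EpCAM that the sort selected against, differed by 0.04 ± 0.11 in the IgG comparison. Abca3, a lipid carrier of type 2 cells, differed by -0.02 ± 0.08 there, and neither gene was called. These calls read each gene from its probe set of highest mean. Over all 14 probe sets of the list, 3 were called higher in the IgG and 1 in the anti-VEGF comparison. The latter was another probe set of Abca3, at 0.44 ± 0.09 (adjusted p = 0.0296). It was at 0.23 ± 0.12 in the IgG comparison (adjusted p = 0.31). The remaining Abca3 probe set was at -0.10 ± 0.08 in the IgG comparison and was not called. The mean of that list ran over 9.77 to 9.97 in anti-VEGF metastatic, 9.84 to 10.1 in IgG metastatic and 8.83 to 9.69 in healthy lungs, and its part in the class II values was not tested either.

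Of 8 fibroblast and pericyte markers 4 were called higher in the IgG comparison and 3 in the anti-VEGF comparison, led by Col1a1 at 1.48 ± 0.14 in the IgG and 1.33 ± 0.15 in the anti-VEGF comparison, with Col1a2 at 1.44 ± 0.20, Pdgfrb at 1.18 ± 0.24 and Rgs5 at 1.06 ± 0.21 in the IgG comparison. The list did not move as one. In the IgG comparison 5 of the 8 differences were above 0, while Pdgfra, which encodes the CD140a that the sort selected against, was at -0.45 ± 0.35 (adjusted p = 0.5), Dcn at -0.35 ± 0.31 and Cspg4 at -0.07 ± 0.10, none of them called. The mean of 12 pan-endothelial markers was 12.79 to 12.81 in anti-VEGF metastatic, 12.77 to 12.83 in IgG metastatic and 12.74 to 12.79 in healthy lungs, but single markers differed. Emcn was called higher in the IgG comparison at 0.43 ± 0.10 and in the anti-VEGF comparison at 0.50 ± 0.09. Eng was called lower in the anti-VEGF comparison at -0.38 ± 0.08 (adjusted p = 0.0348) and was at -0.28 ± 0.08 in the IgG comparison (adjusted p = 0.0767). Of 6 general capillary markers 1 was called lower in the IgG comparison, Hmcn1 at -0.60 ± 0.09. The third healthy array was the highest healthy array for all 6 measured class II genes. It was also the highest for the macrophage, type 2 cell, fibroblast and pericyte, dendritic cell and general capillary lists. Without it, 4 genes were called in the IgG and 5 in the anti-VEGF comparison. In the metastatic groups the class II mean was highest on anti-VEGF array 2 and IgG array 1. The macrophage, B cell and pan-endothelial lists were highest on the same arrays, and no other marker list was highest on both. What these orders reflect was not tested. RNA integrity was read from beta-actin, whose 3' probe set exceeded its 5' probe set by 0.526 to 0.620 log2 units in anti-VEGF metastatic, 0.488 to 0.555 in IgG metastatic and 0.609 to 0.620 in healthy lungs, and its part in the class II values was not tested.

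**Figure D4:**
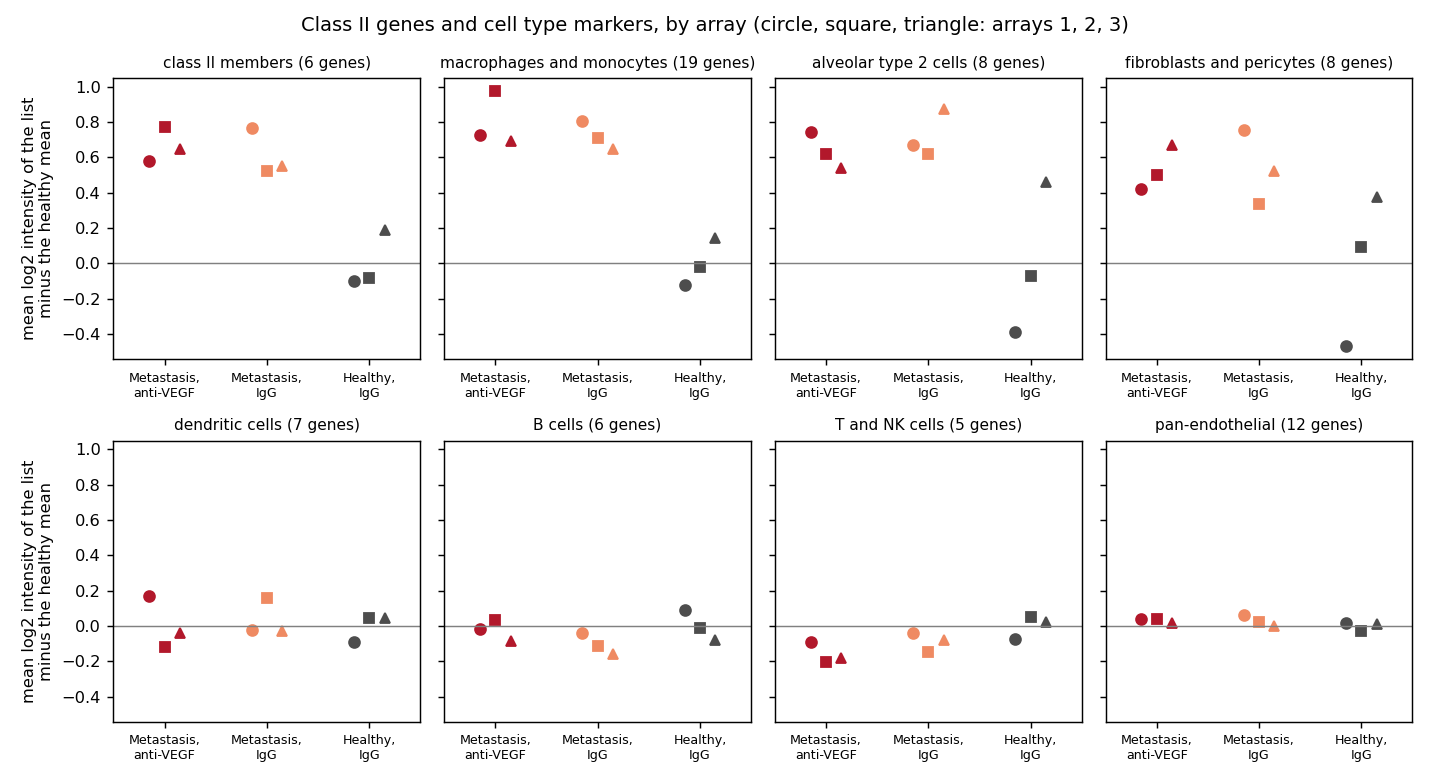
Mean log2 intensity of the 6 measured class II genes and of 7 marker lists on each array, minus the mean of the healthy arrays (vertical axis), with anti-VEGF metastatic, IgG metastatic and healthy groups of 3 arrays. The class II, macrophage and alveolar type 2 lists lie higher on every metastatic than on any healthy array, while the dendritic cell, B cell, T and NK cell and pan-endothelial lists stay nearer to the healthy mean.

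The genes whose profile over the 9 arrays was nearest to a called class II gene were ranked by the root-mean-square difference of their mean-centred log2 values. For H2-Ab1 these were Ms4a6b (0.0877), Col5a2, Gxylt2, Timp1 and Mmp14, the next class II gene being Cd74 at 0.198. For Cd74 they were Pygl (0.112), Fut4, Mfap5, Timp1 and AU015791, with H2-Eb1 at 0.184. H2-DMa was nearest to Pth2 (0.0865), Pcdh17, Gbp3, Lamb3 and Kiss1r, and H2-Eb1 to Mgat4b (0.0715), Zfp423, Pter, Sdc4 and Ninj1. Other genes of the array lay nearer to each of the 4 called class II genes than any fellow class II gene did. This was close to fixed in advance, because the nearest gene was picked from nearly all 18193 genes tested. The fellow gene was picked from the few other class II genes measured. The ranking therefore cannot show whether class II genes move together. The measure is a description over 9 arrays of 3 groups and favors genes of a like size of difference.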

How the data were processed

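The deposited values are log2 intensities of 45101 probe sets, which the authors made from the scanned arrays by RMA (background correction, quantile normalization and summary over a probe set) in Chipster. RMA forces the arrays to 1 distribution, so differences are relative to all genes. The RNA input of each array was small and amplified, and the number of arrays limits the precision. From these values, probe sets naming several genes (932), none (9211) and controls were left out, and each gene was read from its probe set of highest mean. Each pair of groups was tested with limma 3.58.1 in R 4.3.3 over all genes, with Benjamini-Hochberg adjustment and a threshold of 0.05. The fit was tested on simulated data. Alternatives covered the arrays fitted, a replicate block, dim genes, centring, normalization, moderation, choice of probe set and each array left out. A fit with all named probe sets was added after seeing the data.

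Members and lists were chosen with earlier results of these data known. All members are named, and of each list up to 4 called genes of largest difference or, with none called, the 2 of smallest p. Ptprc, Brd2, Psmb9, H2-K1, H2-D1, Cd86, Cd80, Cd40, Rfxap, Pdgfra, Dcn, Cspg4, Epcam, Abca3, Eng and the further class II chains were named after their values were seen. So were Mertk, Ccr2, Fcgr1, Adgre1, Ifngr2, Jak1, Jak2 and Socs1. Labels call the arrays biological replicates. Scan batches are not given in the sources used here.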

Additional observations from a re-analysis of the deposited data

How the results depend on the processing

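All 80 values of the 6 genes under the alternatives were above 0 in each comparison with healthy ECs, and 10 of 80 changed sign in anti-VEGF over IgG metastatic ECs, where 0 genes were called in every alternative. Those that changed sign were H2-Aa with the mean of its probe sets (-0.026) and Ciita with probe sets named with _at alone (-0.0012). With 1 array left out, Ciita (-0.13 to 0.25), H2-Ab1 (-0.17 to 0.11), H2-DMa (-0.0996 to 0.0484) and H2-Eb1 (-0.0727 to 0.115) changed sign too. With probe sets named with _at alone, 2 class II genes were called in each comparison with healthy ECs. H2-Ab1, H2-Aa and Cd74 have no such probe set, as the names of theirs end in _a_at, _s_at or _x_at. With 1 array left out, the IgG comparison called 2 to 4 class II genes, 3 to 5 class II probe sets and 869 to 1478 genes of 1640, and the anti-VEGF comparison 2 to 5, 3 to 7 and 645 to 1139 of 1172. With trend and robust moderation the anti-VEGF comparison called 1848 genes, and the cause was not tested. With the replicate block 3 and 4 class II genes were called, H2-Eb1 being lost in the IgG comparison (adjusted p = 0.0808) and H2-Aa in the anti-VEGF comparison (adjusted p = 0.0544). The correlations of same-numbered arrays' deviations ran from -0.0757 to 0.0138. They show no shared deviation over all genes. They cannot tell whether same-numbered samples were processed together, since an effect on fewer genes could be missed. H2-Aa was called in the IgG comparison with the mean of its probe sets (adjusted p = 0.0414) and not in the anti-VEGF comparison (adjusted p = 0.0563). In the anti-VEGF comparison Cd74, H2-Aa and H2-Eb1 each lost their call without healthy array 1 or 2 or anti-VEGF array 2 or 3 (adjusted p = 0.0566 to 0.111). In the IgG comparison H2-Eb1 lost its call without healthy array 1 or 2 or IgG metastatic array 1 or 2 (adjusted p = 0.1 to 0.111). The arrays give no count or detection call, so low intensities cannot be split into expressed and not expressed.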
